A study of Mus musculus with 7 samples.

Results

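The genes of 9 transcription factors that set the fate of monocytes were followed here: Nr4a1, Klf2, Klf4, Cebpa, Cebpb, Irf8, Irf4, Spi1 and Pou2f2. They were chosen by name from the 25127 genes of the count table, and all 9 were in it. The cells came from C57/Bl6 mice, were enriched for the myeloid integrin chain CD11b, and had RNA and antibody tags read in each cell by CITE-seq. Of 7 libraries, 4 came from mice bearing LLC tumors (Lewis lung carcinoma, a transplantable mouse tumor) at day 14, which were tumor tissue, blood, bone marrow and spleen. The other 3 libraries came from blood, bone marrow and spleen of naive mice, which carried no tumor. No genotype other than the strain is given in the labels, nor whether animals were pooled or which tissues came from the same animals. With 1 library for each combination of tissue and state, groups could not be tested against each other, and no value below has a replicate.

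Monocytes leave the bone marrow as classical cells with abundant surface Ly-6C, and some convert in the circulation to non-classical cells with little Ly-6C that patrol vessels. In mice the orphan nuclear receptor Nr4a1, itself an immediate early gene, is needed for non-classical monocytes, and C/EBP beta (Cebpb) and the Krüppel-like factor Klf2 are known to act upstream of it. PU.1 (Spi1), C/EBP alpha (Cebpa) and Irf8 act earlier, when progenitors commit to the myeloid and monocyte lines, while Klf4 favours monocyte formation and Irf4 takes part in some dendritic cell and alternatively activated macrophage programs. Pou2f2 encodes Oct-2, an octamer-binding factor best known from B cells.

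The promoters are shown with a motif for the cAMP- and stress-responsive CREB and ATF factors, the CRE core TGACG. Of the motifs searched, it was picked for display because some members held it and others did not. RefSeq promoter sequences of build GRCm38.p6, each 250 bases before to 50 after a gene's start, were found for 8 of 9 members, and Spi1 had no entry. The TGACG core, searched on both strands, was in 4 of these members: Nr4a1 had 4, Cebpb 3, Klf2 1 and Klf4 1. No TGACG core was found in the windows of Cebpa, Irf8, Irf4 and Pou2f2. Of 32851 mouse promoters of the same length, 20.8% held TGACG. That share was not matched for the G and C content of the members' promoters, and no enrichment was tested. The windows of Nr4a1 (chr15:101266596-101266895, plus strand, inside the annotated gene), Cebpb (chr2:167688665-167688964, plus strand), Klf4 (chr4:55532426-55532725, minus strand) and, for contrast, Cebpa (chr7:35119043-35119342, plus strand) read as follows 5′ to 3′, with each core, TGACG or its reverse complement, in capitals.
Nr4a1: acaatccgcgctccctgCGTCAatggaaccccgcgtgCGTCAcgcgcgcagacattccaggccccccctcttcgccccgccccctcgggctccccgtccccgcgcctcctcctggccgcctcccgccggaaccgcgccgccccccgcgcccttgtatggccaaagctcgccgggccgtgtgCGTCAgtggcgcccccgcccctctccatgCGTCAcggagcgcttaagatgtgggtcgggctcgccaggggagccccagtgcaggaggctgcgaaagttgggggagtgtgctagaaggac
Cebpb: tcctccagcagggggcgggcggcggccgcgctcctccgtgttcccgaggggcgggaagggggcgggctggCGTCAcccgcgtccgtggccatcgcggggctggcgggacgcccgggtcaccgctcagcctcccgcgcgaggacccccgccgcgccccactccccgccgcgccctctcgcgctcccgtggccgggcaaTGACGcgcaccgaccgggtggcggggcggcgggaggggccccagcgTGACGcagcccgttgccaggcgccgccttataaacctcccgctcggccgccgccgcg
Klf4: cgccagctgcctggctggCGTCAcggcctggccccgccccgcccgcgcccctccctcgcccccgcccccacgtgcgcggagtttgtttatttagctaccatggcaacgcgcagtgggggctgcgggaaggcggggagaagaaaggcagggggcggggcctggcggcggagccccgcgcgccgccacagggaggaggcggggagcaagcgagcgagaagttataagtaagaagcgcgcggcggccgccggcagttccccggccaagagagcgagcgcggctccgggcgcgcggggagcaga
Cebpa: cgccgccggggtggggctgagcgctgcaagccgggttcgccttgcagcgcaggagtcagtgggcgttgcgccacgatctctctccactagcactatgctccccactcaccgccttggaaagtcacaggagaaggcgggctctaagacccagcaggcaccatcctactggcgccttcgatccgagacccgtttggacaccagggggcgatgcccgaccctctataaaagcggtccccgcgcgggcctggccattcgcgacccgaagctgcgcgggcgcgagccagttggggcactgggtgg
In Nr4a1 the TGACG cores began at -233, -213, -69 and -40 from the start of transcription, and in Cebpb at -180, -53 and -7. The single sites of Klf2 and Klf4 began at -241 and -232. The GC box GGGCGG, which Krüppel-like and Sp factors can bind, was in 7 of the 8 members with a promoter (all but Cebpa) and in 35.7% of mouse promoters, and no TGACG core overlapped one. The PU.1 core GAGGAAGT (3.20% of promoters), the interferon response core GAAANNGAA (8.56%) and the full CRE TGACGTCA (1.79%) were in none of the 8. The other genes lie, on the same build, at chr8:72319033-72321656 (Klf2), chr8:120736358-120756694 (Irf8), chr13:30749226-30766976 (Irf4) and chr2:91082390-91115756 (Spi1) on the plus strand, and at chr7:25087344-25179726 (Pou2f2) on the minus strand. The motif matches describe letters in the windows, and the data hold no measure of binding.

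Counts were held for 4290 cells, from 57 cells and 617821 UMIs (unique molecular identifiers, counted molecules) in tumor-bearing marrow to 1917 cells and 20844058 UMIs in tumor tissue. The median cell had 8841 UMIs in tumor tissue and 9827 to 12445 in the other 6 libraries. The authors' clusters were used as deposited. The members may be among the genes that made them, so values by cluster are descriptions. Cluster 4 was non-classical monocyte-like by its leading genes, which included Ace, Treml4, Spn, Eno3, Ear2 and Adgre4. No cluster could be named classical by the same rule; cluster 0 had the highest summed classical markers in each blood and spleen library, but granule genes stood among its leading genes. Neutrophil-like cells (cluster 12) and, in tumor tissue, macrophage-like (cluster 11) and conventional dendritic cell-like cells (cluster 17) were the other named clusters. Barcodes shared between libraries were 2 of 4288.

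Nr4a1 was at 475 counts per 1000000 UMIs (CPM) in tumor tissue, 224 in tumor-bearing blood, 59.9 in tumor-bearing marrow and 207 in tumor-bearing spleen, and at 216 in naive blood, 43.5 in naive marrow and 194 in naive spleen. Tumor tissue therefore stood highest, the marrow libraries lowest, and blood and spleen between. The 95% counting intervals of each neighbouring pair among the 4 blood and spleen libraries overlapped, as did those of the 2 marrow libraries. The ends of the 4 did not overlap, with tumor-bearing blood at 210 to 238 and naive spleen at 181 to 207. These exact Poisson intervals, like all intervals below, cover counting error only. The marrow levels rest on 37 UMIs in tumor-bearing marrow and 67 in naive marrow.

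Klf2, which holds T cells and monocytes in a quiescent, circulating state, was at 788 CPM in tumor tissue, 1161 in tumor-bearing blood, 626 in tumor-bearing marrow and 866 in tumor-bearing spleen, and at 1324 in naive blood, 514 in naive marrow and 1089 in naive spleen. Blood was highest and marrow lowest in both states, and no neighbouring intervals in this order overlapped. Klf4 was at 633 CPM in tumor tissue, 267 in tumor-bearing blood, 193 in tumor-bearing marrow and 163 in tumor-bearing spleen, and at 281 in naive blood, 147 in naive marrow and 202 in naive spleen. Only tumor tissue stood far apart; the blood libraries came next, with overlapping intervals.

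Cebpa had the reverse order at its low end: 56.1 CPM in tumor tissue, 134 in tumor-bearing blood, 123 in tumor-bearing marrow and 112 in tumor-bearing spleen, and 158 in naive blood, 128 in naive marrow and 132 in naive spleen. Naive blood was highest, tumor tissue lowest, and neighbours among the other 5 libraries overlapped. The ends of those 5 did not, with tumor-bearing blood at 123 to 145 and tumor-bearing spleen at 104 to 121. Cebpb was at 3359 CPM in tumor tissue, 1985 in tumor-bearing blood, 1201 in tumor-bearing marrow and 1446 in tumor-bearing spleen, and at 2046 in naive blood, 1191 in naive marrow and 1744 in naive spleen. Its order resembled that of Nr4a1, with tumor tissue highest and marrow lowest. A gene on the opposite strand, Tmem189, overlaps Cebpb and the strand used in counting is not given. Tmem189 itself had 2281 UMIs against 70013 of Cebpb in tumor tissue. It too was highest there, at 109 CPM, against 16.2 to 23.3 in the other libraries. Its part in the Cebpb counts was not tested.

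Pou2f2 was at 74.1 CPM in tumor tissue, 250.5 in tumor-bearing blood, 173 in tumor-bearing marrow and 278 in tumor-bearing spleen, and at 277 in naive blood, 158 in naive marrow and 295 in naive spleen. It was lowest in tumor tissue, next lowest in the marrow libraries, and highest in naive spleen, whose interval overlapped those of tumor-bearing spleen. Irf8, a lineage factor of monocytes and dendritic cells, was at 198 CPM in tumor tissue, 252 in tumor-bearing blood, 253 in tumor-bearing marrow and 265 in tumor-bearing spleen, and at 288 in naive blood, 294 in naive marrow and 354 in naive spleen. Each naive library was above the tumor-bearing library of its tissue, with overlapping intervals in marrow. Spi1 varied least of the members by ratio of highest to lowest library, with 634 CPM in tumor tissue, 878 in tumor-bearing blood, 808 in tumor-bearing marrow and 734 in tumor-bearing spleen, against 796 in naive blood, 591 in naive marrow and 739 in naive spleen. Irf4 was sparse, with 87 UMIs (4.17 CPM) in tumor tissue, 59 (13.04 CPM) in tumor-bearing blood, 8 (12.95 CPM) in tumor-bearing marrow and 104 (18.1 CPM) in tumor-bearing spleen, against 190 (19.4 CPM) in naive blood, 19 (12.3 CPM) in naive marrow and 83 (18.8 CPM) in naive spleen. Outside tumor tissue the intervals of Irf4 overlapped from each library to the next.

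**Figure D1:**
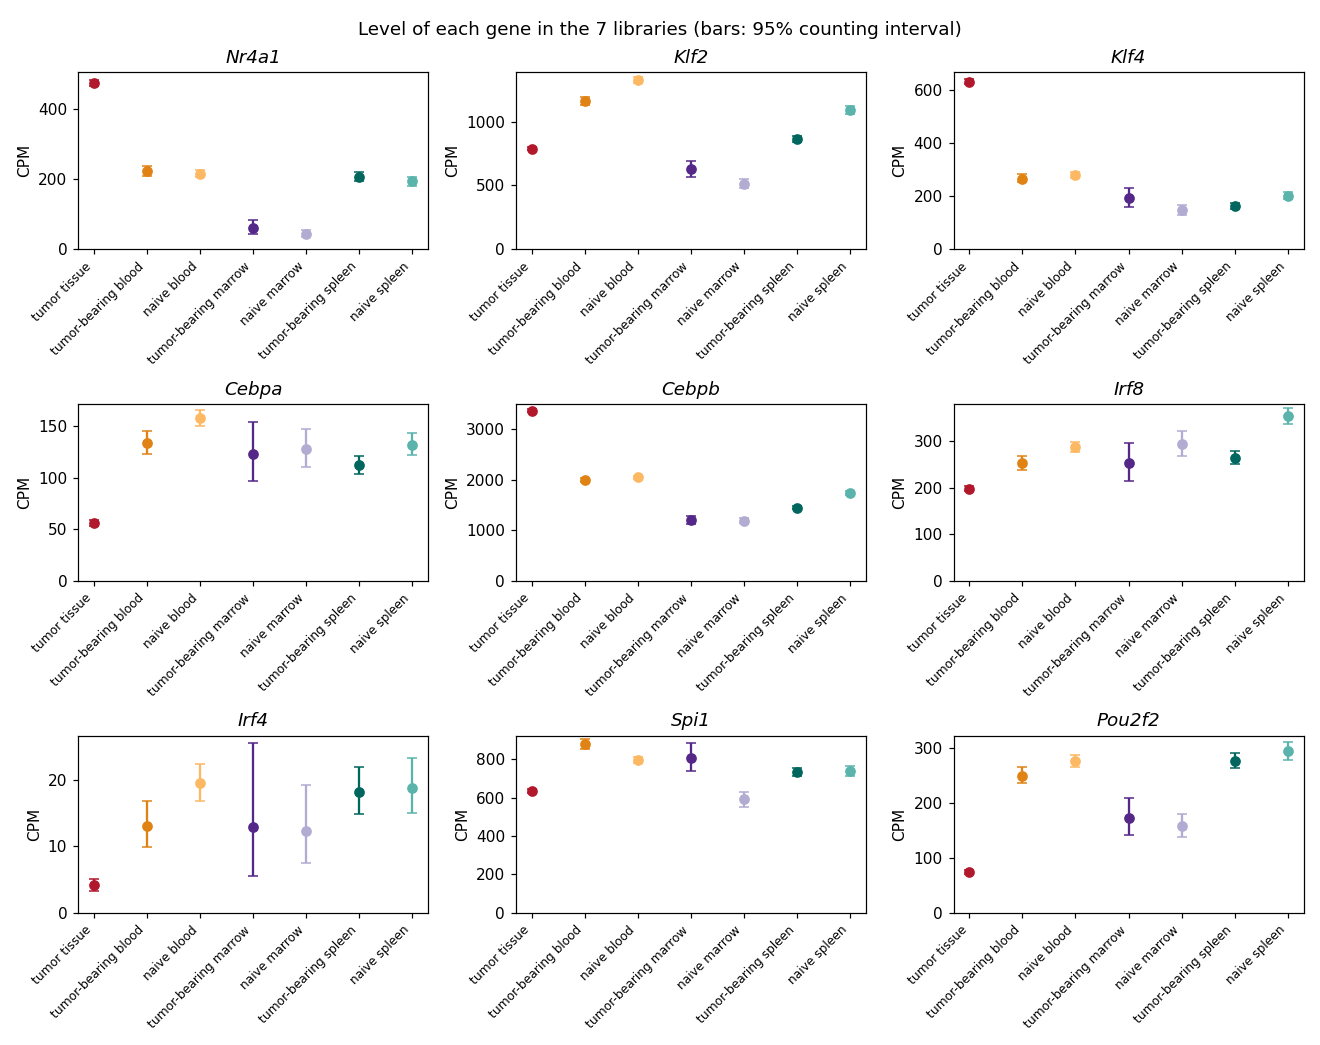
Level of each of the 9 members (CPM) in the 7 libraries, 1 point per library with its exact 95% counting interval, tumor tissue and tumor-bearing libraries beside naive ones. Nr4a1, Klf4 and Cebpb were highest in tumor tissue (475, 633 and 3359 CPM), where Cebpa, Pou2f2, Irf8 and Irf4 were lowest.

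The share of cells with a UMI of Nr4a1 was 83.3% in tumor tissue, 68.9% in tumor-bearing blood and 69.4% in tumor-bearing spleen, and 64.5% in naive blood and 69.2% in naive spleen. In marrow it was 31.6% in tumor-bearing and 21.6% in naive mice. With each cell thinned to 5000 UMIs, which left out 248 of 4290 shallower cells, the shares were 74.3% in tumor tissue, 46.7% in tumor-bearing blood, 52.9% in tumor-bearing spleen, 47.8% in naive blood, 52.0% in naive spleen, 17.9% in tumor-bearing marrow and 12.4% in naive marrow. Of Pou2f2, thinned shares were 25.8% in tumor tissue, 60.3% in tumor-bearing blood and 68.5% in tumor-bearing spleen, against 64.8% in naive blood and 69.3% in naive spleen. Cebpa was found after thinning in 16.6% of tumor tissue cells, 42.9% of tumor-bearing blood cells and 47.1% of naive blood cells. No cluster here is known to lack these 3 genes, so the share that free RNA alone would give could not be set for them. For Irf4, neutrophil-like cluster 12 gives a comparison: 1 of its 17 cells in tumor-bearing blood and 0 of its 11 cells in naive blood held a UMI, and with so few cells the exact upper limits were 28.7% and 28.5%. Irf4 UMIs were in 12.99% of all tumor-bearing blood cells and 16.95% of all naive blood cells, within those limits. With so few cluster 12 cells, this comparison could not tell the Irf4 shares from background. By cluster, 33.1% of cluster 6 cells (24.7% to 42.3%) and 8.33% of cluster 4 cells (4.23% to 14.4%) in naive blood held an Irf4 UMI. After thinning these were 11.9% (6.64% to 19.1%) and 3.82% (1.25% to 8.68%), with overlapping intervals.

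Within blood and spleen, Nr4a1, Klf4 and Pou2f2 were highest in the non-classical monocyte-like cluster 4, and Cebpa was lowest there. Nr4a1 was at 601 CPM in cluster 4 and 141 in clusters 0, 1, 2, 6 and 16 together (called the others) of tumor-bearing blood, a 4.28-fold difference (95% counting interval 3.77 to 4.85). In naive blood it was at 591 in cluster 4 and 140 in the others (4.22-fold, 3.87 to 4.60). In tumor-bearing spleen the levels were 518 and 167 (3.10-fold, 2.72 to 3.51), and in naive spleen 400 and 154 (2.60-fold, 2.24 to 3.01). Cluster 4 was above the others in all 4 libraries. The others are compared by number and not as a cell type, since granule genes lead cluster 0 beside classical markers, and B cell genes (Igkc, Cd79a and Cd79b) lead cluster 6.

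A difference of 2-fold or more, among genes with at least 30 UMIs in both groups together and 20 CPM in one, was counted as higher or lower. In tumor-bearing blood 3 of the 8 members past the minimum were higher and 1 lower in cluster 4, where 4.79% of all genes were higher and 3.5% lower. In naive blood 3 of 9 were higher and 2 lower (3.65% and 3.04% of all genes). In tumor-bearing spleen 2 of 8 were higher and 0 lower (2.65% and 2.62%), and in naive spleen 1 of 9 was higher and 2 lower (3.15% and 2.48%). The clusters are of these same cells and may have been built from these same counts, so these shares describe the cluster and test nothing.

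Klf4 was at 589 CPM in cluster 4 and 198 in the others of tumor-bearing blood (2.98-fold, 2.65 to 3.35), and at 610 and 216 in naive blood (2.83-fold, 2.61 to 3.05). In tumor-bearing spleen it was at 346 in cluster 4 and 137 in the others (2.53-fold, 2.17 to 2.94), and in naive spleen at 313 and 182 (1.72-fold, 1.47 to 2.01). Pou2f2 was at 548 CPM in cluster 4 and 184 in the others of tumor-bearing blood (2.98-fold, 2.64 to 3.36), at 536 and 224 in naive blood (2.39-fold, 2.20 to 2.59), at 436 and 256 in tumor-bearing spleen (1.71-fold, 1.497 to 1.94), and at 447 and 265 in naive spleen (1.69-fold, 1.48 to 1.92). For both genes the ratio was larger in the blood than in the spleen library of the same state. Against cluster 0 alone, Pou2f2 was 2.76-fold higher in cluster 4 of tumor-bearing spleen and 2.28-fold higher in cluster 4 of naive spleen.

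Cebpa, which drives the granulocyte and monocyte progenitor stage, went the other way. It was at 55.7 CPM in cluster 4 and 154 in the others of tumor-bearing blood (2.76-fold lower), at 58.9 and 179 in naive blood (3.04-fold lower), at 64.8 and 121 in tumor-bearing spleen (1.86-fold lower, short of the 2-fold line), and at 66.4 and 146 in naive spleen (2.19-fold lower). Cebpb was higher in cluster 4 by 1.84-fold in tumor-bearing blood (3171 and 1720 CPM), 1.92-fold in naive blood (3390 and 1767), 1.48-fold in tumor-bearing spleen (2031 and 1369) and 1.54-fold in naive spleen (2460 and 1595). The 2 C/EBP genes thus differed in direction in every library, and Cebpb stayed under 2-fold in each. Against cluster 0 alone, Cebpb was 2.19-fold higher in cluster 4 of tumor-bearing blood and 2.43-fold higher in cluster 4 of naive blood, past the 2-fold line.

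Klf2 was 1.52-, 1.53-, 1.64- and 1.33-fold higher in cluster 4 of tumor-bearing blood, naive blood, tumor-bearing spleen and naive spleen, and Spi1 was 1.39-, 1.45-, 1.16- and 1.19-fold higher in the same order. Irf8 was not higher in cluster 4 in any of the 4, with ratios of 0.816, 0.990, 0.639 and 0.893. Irf4 passed the minimum in the naive libraries, where it was at 6.68 CPM in cluster 4 and 22.4 in the others of naive blood (3.35-fold lower; against clusters 0, 1 and 2 alone it was under the minimum, with a ratio of 0.359), and at 4.33 and 22.1 in naive spleen, with 3 and 80 UMIs (ratio 0.195, interval 0.0395 to 0.592).

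**Figure D2:**
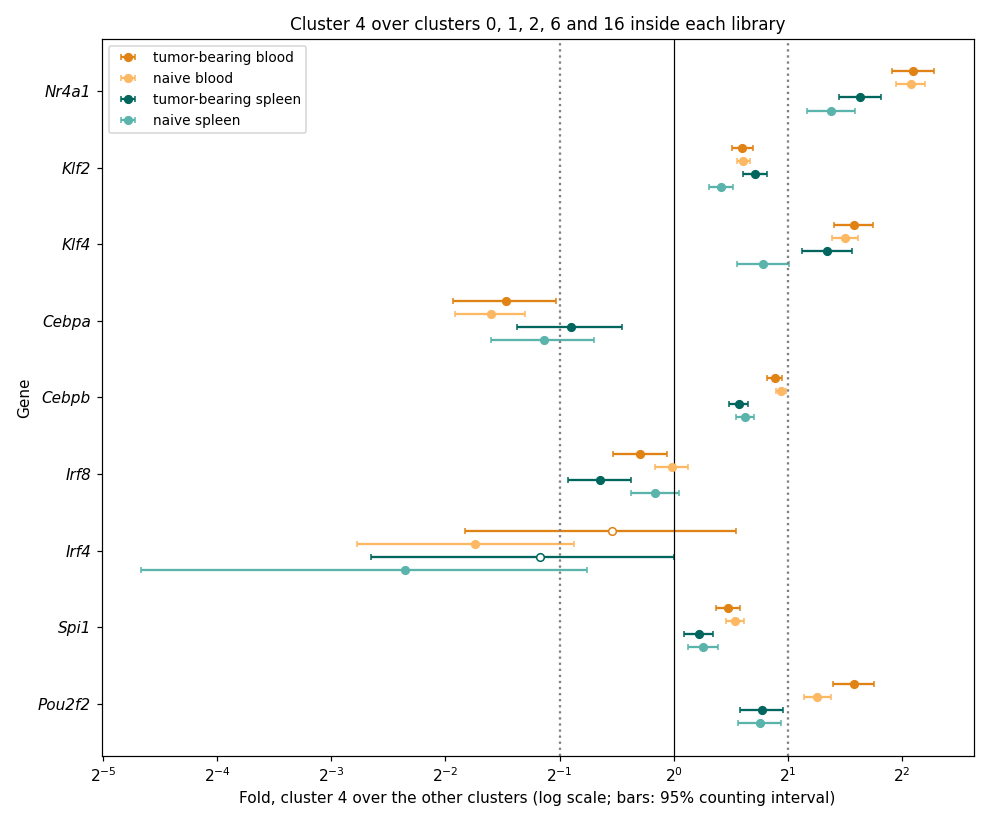
Ratio of each member's level in cluster 4 to that in clusters 0, 1, 2, 6 and 16 (log axis), by library of blood and spleen, with exact 95% counting intervals; dotted lines mark 2-fold either way and open symbols a member under the minimum. Nr4a1 lay above the upper line in all 4 libraries, at 4.28 in tumor-bearing blood and 2.60 in naive spleen at the ends, while Cebpa lay below 1 in all 4.

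Cluster 1 came next to cluster 4 for Nr4a1 in each blood and spleen library. In naive blood Nr4a1 was at 591 CPM in cluster 4, 249 in cluster 1, 148 in cluster 2, 116 in cluster 16, 102 in cluster 6 and 70.3 in cluster 0. Tumor-bearing blood, where cluster 16 was too small, had the same order, with 601 in cluster 4, 240 in cluster 1, 174 in cluster 2, 95.9 in cluster 6 and 76.5 in cluster 0. Cluster 1 also had 3 non-classical markers (Ace, Adgre4 and Itgal) among its leading genes, but its summed classical markers were at 4774 to 6832 CPM in the 4 libraries, and it is called by its number here. Pou2f2 in naive blood was likewise highest in cluster 4 (536 CPM), then cluster 1 (336), with 167 to 212 in the other 4 clusters. Cebpa ran from 210 in cluster 6 and 205 in cluster 0 through 176 in cluster 2, 137 in cluster 16 and 136 in cluster 1 to 58.9 in cluster 4.

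Irf4 differed in this pattern. It was at 27.7 CPM in cluster 6 and 14.8 in cluster 0 of tumor-bearing blood, against 9.68 in cluster 4. These levels rest on 15, 19 and 8 UMIs, and their intervals overlapped. After thinning, 2.63% of cluster 6 cells and 3.17% of cluster 4 cells there held an Irf4 UMI. In naive blood Irf4 was at 38.1 CPM in cluster 6 and 23.3 in cluster 0, against 6.68 in cluster 4. In spleen clusters 6 and 0 were closer, with 33.8 CPM in cluster 6 and 32.7 in cluster 0 of tumor-bearing mice and 29.3 and 38.2 CPM in naive mice, where cluster 0 was the higher. Cluster 6 also had the highest summed B cell markers of the blood clusters, 1011 CPM in tumor-bearing and 1055 in naive blood, and summed conventional dendritic cell markers of 2917 to 3674 CPM in the blood and spleen libraries. Their part in the Irf4 level was not tested.

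**Figure D3:**
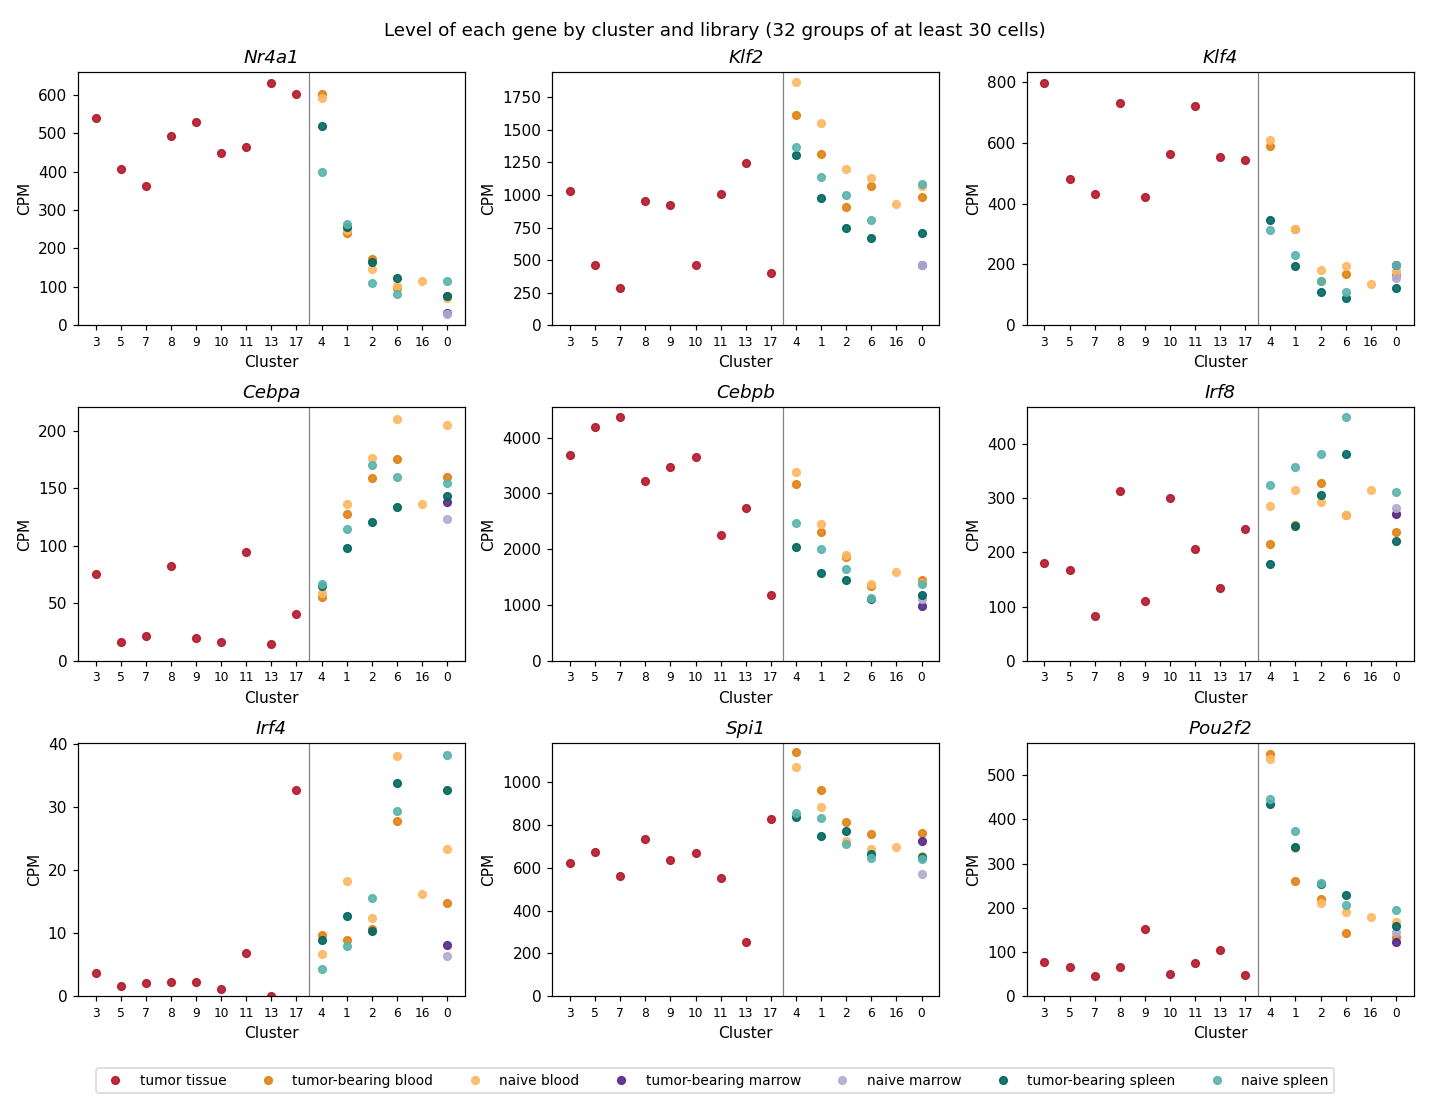
Level of each member (CPM) in the 32 groups of 1 library and 1 cluster with at least 30 cells, tumor tissue left of the vertical line, blood, marrow and spleen to its right. Cluster 4 stood highest for Nr4a1 and Pou2f2 to the right of the line, while in tumor tissue Cebpa was at 75.8 to 94.2 CPM in clusters 3, 8 and 11 and at 16.2 to 21.4 in clusters 5, 7, 9 and 10.

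Other lists put these levels in context. Of 15 genes known as regulated by members, 12, 12, 12 and 11 passed the minimum in tumor-bearing blood, naive blood, tumor-bearing spleen and naive spleen; 3, 2, 2 and 1 of them were higher in cluster 4 and 2, 2, 1 and 1 lower. S1pr5, a sphingosine phosphate receptor for cell egress, was higher in all 4, by 8.96-, 6.49-, 4.62- and 4.43-fold in that order. It is itself among the 10 leading genes of cluster 4, so its rise there is no separate result. The other genes of this list called higher, Cd300e and Cx3cr1, belong to the non-classical marker set. Of 23 other myeloid fate factors, 17, 18, 17 and 16 passed; 4, 4, 3 and 3 were higher and 1, 0, 0 and 0 lower. Among them the liver X receptor gene Nr1h3 was higher by 4.29-, 6.47-, 7.79- and 3.62-fold, and Tcf7l2, a Wnt pathway factor, by 4.37-, 5.79-, 2.24- and 4.32-fold. Of 20 genes of the members' own families, 0 were higher in cluster 4 in both bloods and naive spleen and 2 in tumor-bearing spleen, with 1 lower in tumor-bearing blood.

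Nr4a1 is itself an immediate early gene, so the 14 immediate early and dissociation-responsive genes are given beside it. Their summed level in cluster 4 was 2667 CPM in tumor-bearing blood, where the other clusters had 2237 to 3108, and 2360 CPM in naive blood, where the others had 2320 to 2749. In tumor-bearing spleen cluster 4 had 1861 and the others 1343 to 1510, and in naive spleen 1968 and 1591 to 2016. Of the list, 1 gene was at least 2-fold higher and 1 lower in cluster 4 of tumor-bearing blood, 2 higher and 2 lower in naive blood, and 0 higher and 1 lower in each spleen library. Fos was the gene lower in all 4, and the heat shock gene Hspa1b was higher in both bloods. The median log2 ratio of the list was 0.27 in tumor-bearing blood, 0.06 in naive blood, 0.33 in tumor-bearing spleen and 0.12 in naive spleen. The part of these genes in the Nr4a1 level of cluster 4 was not tested.

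Surface Ly-6C, read by its antibody tag, is a readout separate from the RNA. The tag was scaled per 10000 tags, so its value is a share that also depends on the other antibodies. Cells outside cluster 12 were split within each library into 4 bins of equal cell number by this tag (tumor-bearing marrow was too small and was not split), and the lowest bin was set against the highest. Ly6c2 mRNA followed the tag, with 827 CPM in the low bin and 2098 in the high bin of tumor-bearing blood and 763 and 2092 in naive blood. A bin is a range of a score, not a cell type: in tumor-bearing blood 56 cells lay within 0.1 of the lower cut on the natural log scale and 84 within 0.1 of the upper cut. Low and high are relative within a library: in tumor-bearing blood the tag median was 7.39 in the lowest bin and 8.14 in the highest.

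Nr4a1 was lower at each step from low to high Ly-6C in tumor-bearing blood, with the bins at 382, 234, 162 and 116 CPM. In naive blood the bins had 287, 230, 182 and 166 CPM, in tumor-bearing spleen 272, 195, 218 and 155, and in naive spleen 214, 188, 188 and 183. Of these 4 libraries the ratio between the end bins was largest in tumor-bearing blood and smallest in naive spleen. In the low bin Nr4a1 was 3.27-fold higher than in the high bin of tumor-bearing blood (2.69 to 4.02), 1.73-fold higher in naive blood (1.53 to 1.96), 1.75-fold in tumor-bearing spleen (1.48 to 2.08) and 1.17-fold in naive spleen (0.962 to 1.42). In naive marrow the bins had 102, 43.0, 21.8 and 12.7 CPM, from 36 UMIs in the low and 5 in the high bin, which gave 8.03-fold (3.14 to 26.2). After thinning to 5000 UMIs per cell the ratio was 9.26 but Nr4a1 fell under the minimum count and was no longer called, while Cebpa was called at 2.77-fold. Of 7 immediate early genes past the minimum in naive marrow, 3 (Jun, Jund and Zfp36) were higher in the low bin and 0 lower. Their median log2 ratio was 0.92, beside -0.02 over all genes. In tumor-bearing blood, naive blood, tumor-bearing spleen and naive spleen this median was 0.34, 0.10, 0.39 and 0.26. Their part in the Nr4a1 ratios was not tested.

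Of the 8 members past the minimum in tumor-bearing blood, 2 (Nr4a1 and Pou2f2) were at least 2-fold higher in the low bin, where 3.87% of all genes were, and 0 were lower, as 1.98% of all genes were. In naive blood 0 of 8 members passed 2-fold (2.08% of all genes did, either way), in tumor-bearing spleen 0 of 9 (3.1%), and in naive spleen 0 of 8 (3.03%). In naive marrow 1 of 8 was higher and 0 lower, where 3.81% of all genes were higher and 2.07% lower. Pou2f2 across the bins of tumor-bearing blood was at 368, 290, 191 and 152 CPM, with 2.43-fold in the low over the high bin (2.02 to 2.92). In naive blood the same ratio was 1.41-fold.

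Cluster 4 moved with the tag. It made up 41.2% of the low and 2.35% of the high bin in tumor-bearing blood, 29.9% and 6.47% in naive blood, 28.1% and 3.60% in tumor-bearing spleen, and 29% and 8% in naive spleen. Without its cells the Nr4a1 ratio was 1.76 in tumor-bearing blood, 0.919 in naive blood, 1.23 in tumor-bearing spleen and 0.786 in naive spleen. In naive marrow, where cluster 4 had 1 cell, the Nr4a1 ratio without it was 6.45. The Pou2f2 ratio without cluster 4 was 1.47 in tumor-bearing blood and 1.07 in naive blood. Neither gene passed 2-fold in tumor-bearing blood without cluster 4.

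**Figure D4:**
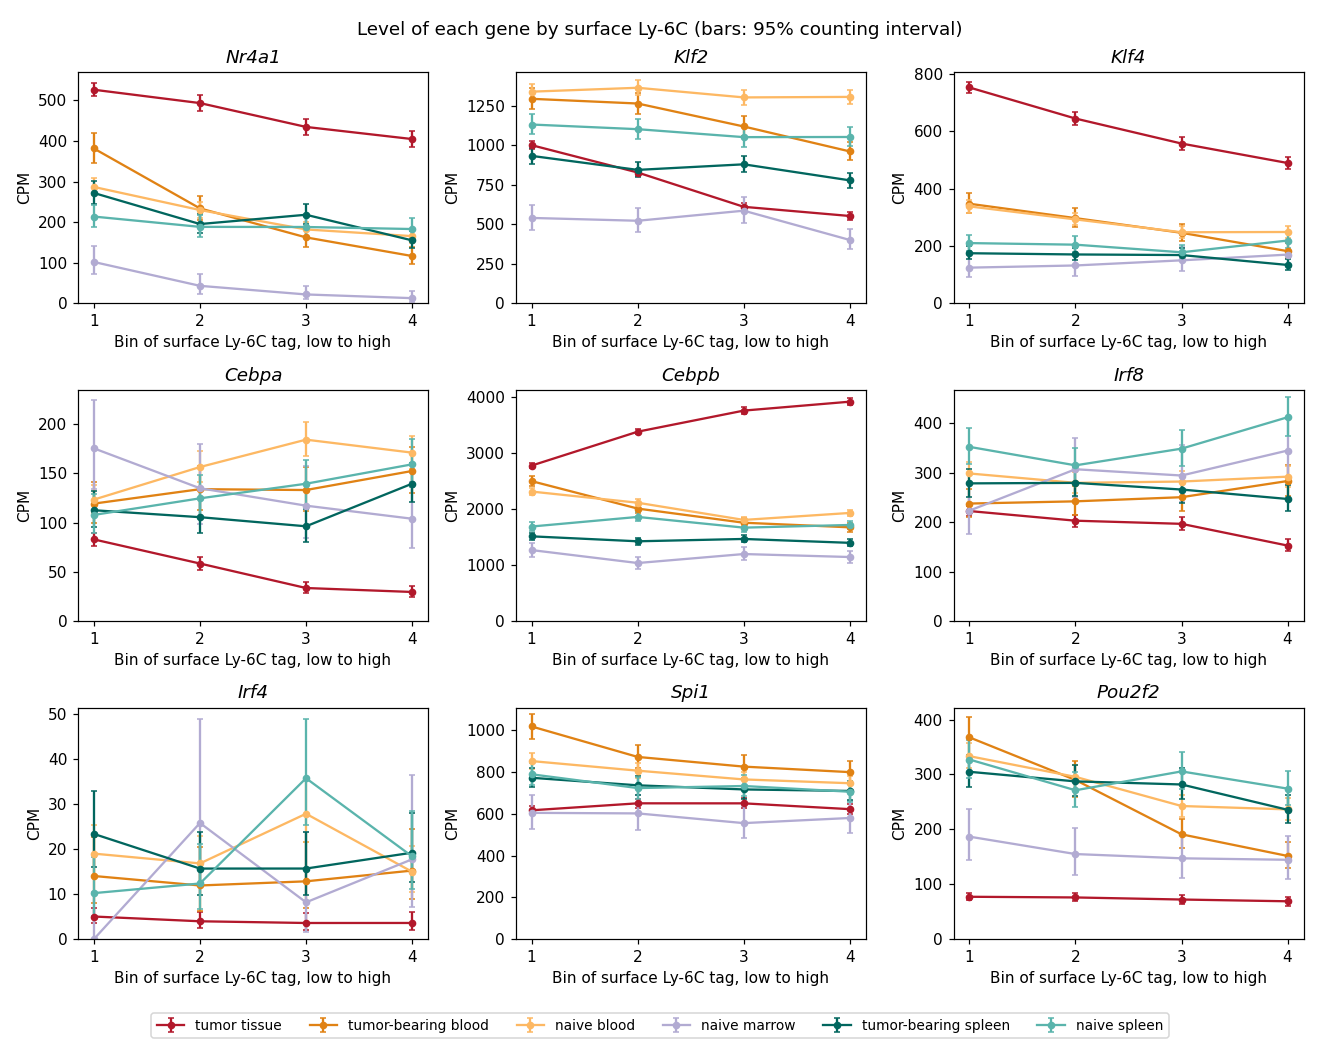
Level of the members (CPM) by bin of the surface Ly-6C tag, from low (1) to high (4), in 6 libraries, 1 line each, with exact 95% counting intervals as bars. Nr4a1 ran down from bin 1 to 4 in tumor-bearing blood (382 to 116 CPM), and Cebpa ran down in tumor tissue (83.0 to 29.7 CPM) but not in blood.

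Cells of the tumor had more Nr4a1, Klf4 and Cebpb and less Cebpa and Pou2f2 than cells of the same state in blood, marrow or spleen. These 3 comparisons share the tumor tissue library, so they are not independent of each other. Nr4a1 in tumor tissue was 2.12-fold above tumor-bearing blood (1.99 to 2.27), 7.94-fold above tumor-bearing marrow (5.75 to 11.3) and 2.29-fold above tumor-bearing spleen (2.16 to 2.44). Klf4 was 2.37-fold (2.24 to 2.52), 3.29-fold (2.74 to 3.97) and 3.89-fold (3.64 to 4.16) above the same libraries. Cebpb was 1.69-fold above blood (1.66 to 1.73), 2.80-fold above marrow (2.60 to 3.01) and 2.32-fold above spleen (2.27 to 2.38).

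Pou2f2 was 3.38-fold lower in tumor tissue than in tumor-bearing blood, 2.34-fold lower than in marrow and 3.75-fold lower than in spleen. Cebpa was 2.38-fold lower than in blood, 2.19-fold lower than in marrow and 2.001-fold lower than in spleen; without the cell with the most Cebpa UMIs in each library the last ratio was 0.504, just short of the 2-fold line. Irf4 was 3.13-fold lower than in blood and 4.33-fold lower than in spleen, but did not reach the minimum level. Klf2 differed by tissue: its ratio was 0.679 over blood (0.658 to 0.700), 0.910 over spleen (0.882 to 0.939) and 1.26 over marrow (1.14 to 1.39). Irf8 was lower in tumor tissue with ratios of 0.786, 0.786 and 0.750 over blood, marrow and spleen, and Spi1 with 0.722, 0.785 and 0.863.

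By count, 2 of 8 members were at least 2-fold higher and 2 lower in tumor tissue than in tumor-bearing blood, where 10.9% of all genes were higher and 9.44% lower. Over marrow 3 were higher and 2 lower (12.2% and 12.1% of all genes), and over spleen 3 higher and 2 lower (10.7% and 12%). The median log2 ratio of all 9 members was -0.47 over blood, -0.35 over marrow and -0.21 over spleen, beside -0.13, -0.17 and -0.15 over all genes past the minimum.

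**Figure D5:**
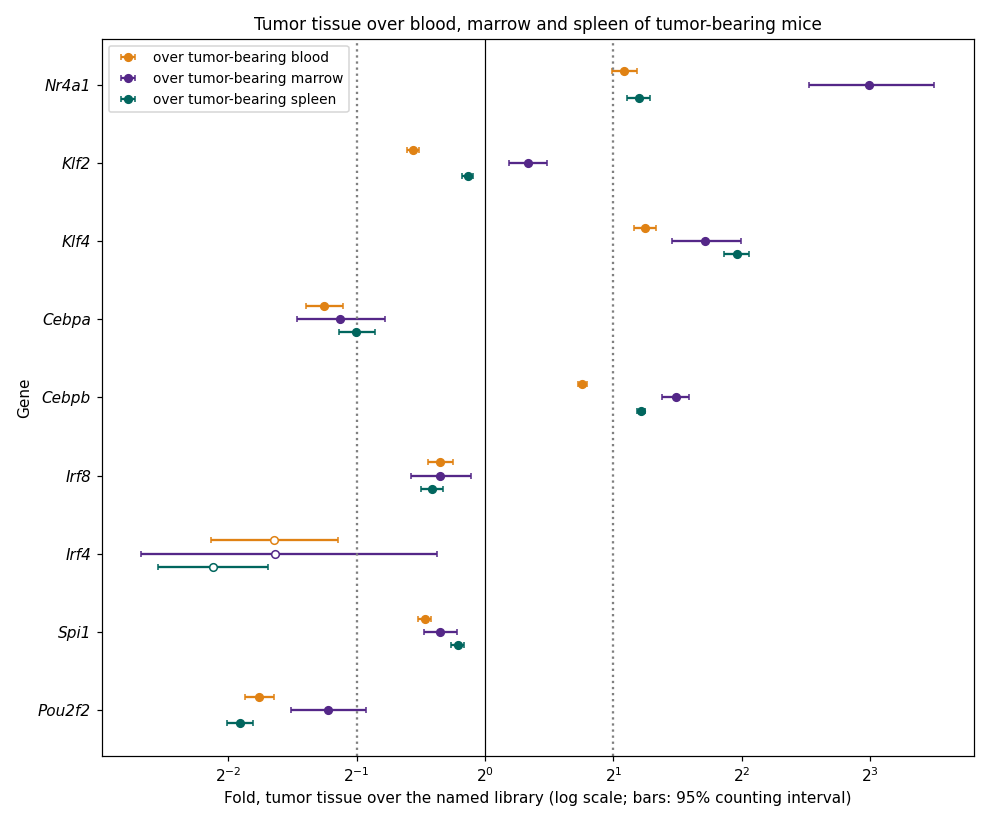
Ratio of each member's level in tumor tissue to that in tumor-bearing blood, marrow and spleen (log axis), with exact 95% counting intervals; dotted lines mark 2-fold either way and open symbols a member under the minimum. Nr4a1 and Klf4 lay above the upper line in all 3 comparisons and Pou2f2 and Cebpa at or below the lower one, with Cebpa at 0.500 over spleen.

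Immediate early genes were far higher in the same library. Of the 14, 12 were at least 2-fold higher in tumor tissue than in tumor-bearing blood, 14 than in marrow and 13 than in spleen, with 0 lower and median log2 ratios of 2.43, 3.84 and 3.69. Their summed level was 13035 CPM in tumor tissue, against 2675 in tumor-bearing blood, 1072 in tumor-bearing marrow and 1495 in tumor-bearing spleen. Ier3 was at 2099 CPM in tumor tissue, against 13.9 in tumor-bearing blood, and Dusp1, a phosphatase of MAP kinases, at 1480 and 120. The sum was 10208 to 18396 CPM across the 9 tumor clusters. Summed macrophage markers were also higher, at 5981 CPM in tumor tissue and 986 to 1653 in the 3 other tumor-bearing libraries, with all 9 markers found in tumor tissue. In the naive libraries this sum was 2353 to 3090 CPM. The part of the immediate early or macrophage genes in the levels of Nr4a1, Klf4 and Cebpb was not tested.

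Among the 20 genes of the same families, 15 passed the minimum over blood, with 4 higher and 3 lower in tumor tissue; 15 over marrow, with 5 higher and 2 lower; and 16 over spleen, with 4 higher and 3 lower. The closest relatives of Nr4a1 were nearly absent from the other tumor-bearing libraries: Nr4a2 was at 147 CPM in tumor tissue, against 1.33 in tumor-bearing blood (111-fold, 50.8 to 302), and Nr4a3 at 47.4 and 0.221, from 1 UMI in blood (215-fold, 38.4 to 8486). Each had 2 UMIs in tumor-bearing spleen, and neither had one in tumor-bearing marrow, where 3 UMIs would be 4.86 CPM. Klf7 was at 26.3 CPM in tumor tissue, against 7.52 in tumor-bearing blood (3.50-fold). Cebpd, an acute-phase member of the C/EBP family, was at 81.1 and 240, a 2.96-fold lower level.

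Of 23 other myeloid fate factors, 18 passed over blood (7 higher, 2 lower), 17 over marrow (9 and 1) and 18 over spleen (6 and 3). Runx3, a Runt-family factor, was at 486 CPM in tumor tissue, against 62.6 in tumor-bearing blood. Of the 15 genes known as regulated by members, 11 passed over blood, with 3 higher and 2 lower. Il1b, the interleukin 1 beta gene, was at 5873 CPM in tumor tissue, against 216 in tumor-bearing blood (27.2-fold), and S1pr5 at 0.768 and 31.8 (41.5-fold lower).

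Inside the tumor the members divided the clusters in different ways. Cebpa was at 94.2 CPM in cluster 11 (macrophage-like, with C1qa and Folr2), 82.2 in cluster 8 (Ccl7 and Ccl12) and 75.8 in cluster 3 (Spp1 and Arg1). The intervals of these 3 overlapped. It was at 40.9 in the dendritic-like cluster 17 and at 16.2 to 21.4 in clusters 5, 7, 9 and 10, while cluster 13 had only 1 Cebpa UMI, too few to place it. After thinning, 34.3%, 24.5% and 26.1% of cells in clusters 11, 8 and 3 held a Cebpa UMI, 12.96% in cluster 17 and 6.63% to 8.56% in clusters 5, 7, 9 and 10. The same 3 clusters led before and after thinning.

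Klf2 divided the clusters at another place. It was at 1244 CPM in cluster 13, 1034 in cluster 3, 1004 in cluster 11, 955 in cluster 8 and 920 in cluster 9, and at 464 in cluster 10, 459 in cluster 5, 399 in cluster 17 and 288 in cluster 7. Klf4 was highest in cluster 3 (798 CPM), cluster 8 (732) and cluster 11 (722), and at 421 to 564 in the rest. Cluster 13, led by Col3a1, had a median of 1478 UMIs per cell, and its levels rest on few counts.

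Cebpb was at 4371 CPM in cluster 7 (Thbs1, Slpi and Ptgs2), 4186 in cluster 5 (Cxcl9) and 3681 in cluster 3, and at 2249 in cluster 11 and 1183 in cluster 17. Irf8 was highest in cluster 8 (313 CPM) and the interferon-gene cluster 10 (300), and lowest in cluster 7 (82.4), 3.80-fold between the ends. Irf4 was at 32.7 CPM in cluster 17 (19.98 to 50.5), 6.83 in cluster 11 and 3.65 or less in the other 7. Pou2f2 was highest in cluster 9 (Nfil3 and Socs3) at 153 CPM (135 to 172) and 46.3 to 105 elsewhere.

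Nr4a1 ranged over 1.74-fold across the tumor clusters, between cluster 13 (630 CPM, from 42 UMIs) and cluster 7 (362). Each neighbouring pair in the order had overlapping intervals, but cluster 3, at 541 (519 to 563), lay above the level of cluster 7. In every tumor cluster Nr4a1 was above its level in cluster 0 of tumor-bearing blood (76.5) and cluster 1 (240). Cluster 4 of tumor-bearing blood, at 601 (550 to 657), was above 7 of the 9 tumor clusters, but its interval overlapped that of cluster 3. Spi1 was at 826 CPM in cluster 17, 733 in cluster 8 and 552 to 673 in the others except cluster 13 (255, from 17 UMIs).

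Of the members, Cebpa had the largest ratio between the lowest and highest Ly-6C bins of tumor tissue. From the low to the high bin Cebpa was at 83.0, 58.5, 33.7 and 29.7 CPM, Klf4 at 753, 645, 557 and 489.5, and Cebpb at 2779, 3384, 3760 and 3920. Cebpa and Klf4 thus stepped down as surface Ly-6C went up, and Cebpb stepped up. In the low over the high bin Cebpa was 2.80-fold (2.30 to 3.42), Klf2 1.81-fold, Klf4 1.54-fold, Irf8 1.46-fold and Nr4a1 1.30-fold (1.23 to 1.38), while Cebpb had a ratio of 0.709 (0.695 to 0.724). Only Cebpa of 8 members passed 2-fold, where 7.1% of all genes were higher and 2.33% lower. Clusters 3, 11 and 8 made up 38.4%, 21.3% and 15.2% of the low bin, and clusters 5, 7, 9 and 10 made up 26.3%, 22.3%, 19.6% and 15.2% of the high bin. These are shares of cells, while levels pool UMIs. The median cell had 29673 UMIs in cluster 11 and 8774 in cluster 3, so cluster 11 weighs more in the levels. Without cluster 11 the ratio of Cebpa was 2.61 and that of Cebpb 0.832.

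The same gene stood differently in blood. Cebpa had 0.783 of the high-bin level in the low bin of tumor-bearing blood and 0.721 in naive blood, and 1.69-fold (1.12 to 2.57) in naive marrow. Without cluster 4 the Cebpa ratio was 1.06 in tumor-bearing blood, 0.923 in naive blood and 1.74 in naive marrow.

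Between tumor-bearing and naive mice no member differed by 2-fold in any of the 3 tissues shared by both. In blood 0 of 8 members did so (0.698% of all genes, either way), in marrow 0 of 8 (3.23%) and in spleen 0 of 8 (0.387%). Irf4 was under the minimum each time. Nr4a1 in tumor-bearing over naive libraries was 1.04-fold in blood (0.962 to 1.12), 1.38-fold in marrow (0.896 to 2.09) and 1.07-fold in spleen (0.978 to 1.17), with all 3 intervals reaching across 1.

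Irf8 showed the widest gap in spleen among the members past the minimum: 265 CPM in tumor-bearing and 354 in naive spleen, a ratio of 0.748 (0.697 to 0.803). It was below 1 within each of the 5 clusters compared there, at 0.712 in cluster 0, 0.694 in cluster 1, 0.802 in cluster 2, 0.549 in cluster 4 (0.436 to 0.687) and 0.848 in cluster 6. In blood the ratio was 0.877 (0.818 to 0.940), with 0.753 (0.630 to 0.897) in cluster 4, 0.798 (0.683 to 0.930) in cluster 1 and 0.866 (0.753 to 0.995) in cluster 0, but 1.12 (0.956 to 1.31) in cluster 2 and 1.003 (0.826 to 1.21) in cluster 6. Irf8 was therefore lower in the tumor-bearing libraries of both tissues, by less than 2-fold, and in blood not in every cluster.

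Klf2 had ratios of 0.877 (0.849 to 0.906) in blood and 0.795 (0.764 to 0.828) in spleen, and 1.22 (1.08 to 1.38) in marrow. Cebpb had a ratio of 0.829 in spleen and 0.970 in blood, and Cebpa 0.852 in spleen and 0.847 in blood. Spi1 was 1.10-fold in blood (1.06 to 1.15), 1.37-fold in marrow (1.22 to 1.52) and 0.994 in spleen. Within single clusters of spleen Nr4a1 was at 0.666 (0.497 to 0.889) in cluster 0, 0.978 (0.840 to 1.14) in cluster 1, 1.502 (1.17 to 1.95) in cluster 2, 1.30 (1.10 to 1.52) in cluster 4 and 1.51 (1.06 to 2.17) in cluster 6. Within cluster 4 of blood Nr4a1 was 1.02-fold, Pou2f2 1.02-fold and Klf4 0.966. Immediate early genes in spleen summed to 1495 CPM in tumor-bearing and 1861 CPM in naive mice. Summed macrophage markers were at 1653 CPM in tumor-bearing and 3090 in naive blood, 1430 and 2353 in spleen, and 986 and 2433 in marrow. Summed neutrophil markers were at 4095 and 1485 in blood, 4886 and 2881 in spleen, and 8388 and 9189 in marrow. Their part in the member ratios was not tested.

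Marrow held little Nr4a1 in either state. In naive marrow over naive blood Nr4a1 was 4.96-fold lower (3.89 to 6.43) and Klf2 2.58-fold lower, and these were 2 of 8 members, where 1.58% of all genes were lower; 0 members were higher, as 0.718% of all genes were. Klf4 had a ratio of 0.525 (0.457 to 0.601), Pou2f2 0.572 (0.500 to 0.652), Cebpb 0.582, Spi1 0.743 and Cebpa 0.811, while Irf8 was at 1.02 (0.923 to 1.13). The factors of progenitor commitment, Irf8, Cebpa and Spi1, thus had the ratios nearest 1 of the 8 in whole libraries. This order did not hold with clusters 0, 1, 2 and 6 weighted equally. Pou2f2 was then at 0.786, beside 0.784 for Spi1, 0.817 for Cebpa and 1.15 for Irf8.

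Cluster 4 was nearly missing from marrow, with 2 of 57 cells in tumor-bearing marrow and 1 of 153 in naive marrow, against 18.1% of tumor-bearing and 16.2% of naive blood cells. The difference also lay within clusters: in cluster 0 Nr4a1 was at 29.1 CPM in naive marrow and 70.3 in naive blood (ratio 0.414, 0.256 to 0.644), and Klf2 at 463 and 1068 (0.433). In cluster 2 the ratios were 0.158 for Nr4a1, from 7 UMIs in naive marrow, and 0.381 for Klf2. Tumor-bearing marrow over tumor-bearing blood gave 0.424 for Nr4a1 and 0.469 for Klf2 in cluster 0. That Nr4a1 ratio rests on 12 UMIs in marrow, 5 of them from 1 cell.

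Of the 14 immediate early genes, 11 passed the minimum and 7 were at least 2-fold lower in naive marrow than in naive blood, with a median log2 ratio of -1.42. Dusp1 was at 10.4 CPM in naive marrow and 82.8 in naive blood, and Fos at 46.7 and 243. Summed neutrophil markers were 9189 CPM in naive marrow and 1485 in naive blood, with granule genes among the leading genes of cluster 0 as well. Without neutrophil-like cluster 12 the ratio of Nr4a1 was 0.202 and that of Klf2 0.384. What part the immediate early genes play in the marrow levels was not tested.

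Naive spleen was close to naive blood. None of 8 members differed by 2-fold, where 0.279% of all genes did. Irf8 was 1.23-fold higher in spleen (1.16 to 1.31), and Klf4 (0.721), Klf2 (0.823) and Nr4a1 (0.899) were below their blood level.

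Likeness between members was described across the 32 groups of 1 library and 1 cluster. Over the 23 groups of blood, marrow and spleen, Pearson's r of log2(CPM + 10) was 0.95 for Nr4a1 and Pou2f2, 0.89 for Nr4a1 and Cebpb, and -0.76 for Nr4a1 and Cebpa. Over the 9 tumor clusters the same pairs gave 0.47, -0.62 and 0.14, and Klf4 with Cebpa gave -0.71 over the 23 groups and 0.83 over the tumor clusters. These are descriptions across groups that share libraries and depth, and the difference between the 2 sets of groups was not tested. Tumor cluster 13 entered with 1 UMI of Cebpa. Of 5251 genes ranked by the same measure over all 32 groups, the most like Nr4a1 were Zfand5 (r = 0.92) and Hes1 (0.89), and the most like Pou2f2 were Rras (0.97) and Adgre4 (0.96). Agpat4 was the most like Klf4 (0.91), Wsb1 like Cebpb (0.91), Bbc3 like Klf2 (0.79), Gtf3a like Cebpa (0.85), Frmd8 like Spi1 (0.88), Gm1966 like Irf8 (0.77) and Tep1 like Irf4 (0.78).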

How the data were processed

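RNA and surface tags of CD11b-enriched cells were read in 7 libraries, each a group of its own, assigned by its tissue and disease state per the labels. Chromium 3' libraries with antibody-derived tags are stated in the labels' protocols, and Cell Ranger and build mm10 in the submitters' processing notes; the version, the annotation, the strand of counting and cell filters were not given in the sources used here. Counts of UMIs for 25127 genes in 4290 cells were deposited by the authors. The deposited antibody tag values are on a natural log scale (1 plus tag counts per 10000). Metadata by the authors gave each cell's library, cluster and mitochondrial fraction (highest 9.86% of UMIs). The metadata's other 237 cells had no counts here, and the deposited normalized RNA values were not used.

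Counts were summed per library, cluster or tag bin and scaled to CPM of all UMIs. With 1 library per group there were no tests. Genes with 30 UMIs in both groups together and 20 CPM in one were called at 2-fold. Ratios have exact 95% conditional binomial (Poisson) intervals and shares exact 95% Clopper-Pearson intervals. Thinning to 5000 UMIs per cell used seed 1. No further cell filter or doublet caller was applied, and an alternative dropped the top 2% of cells by UMIs. List medians used a pseudo-count of 1 CPM; leading genes and likeness used 10 CPM. The members, gene lists, marker sets and rules were chosen with earlier results of these data known. Named besides the 9 members were at most 4 genes per list with the largest ratio, marker genes, leading genes and the genes most like a member; Tmem189 was named for its overlap. Clusters were named from at least 3 markers among their 10 leading genes. Clusters 0 (neutrophil), 1 (non-classical) and 6 (B cell) also met that number and are called by number, a choice made after their genes were seen, since other leading genes or marker sums went against the name. Ratios, intervals and calls were tested on simulated counts first. Other scalings, minimums, cell sets and cluster sets were tried. Python 3.11.15, numpy 2.4.6, scipy 1.17.1, pandas 2.3.3 and matplotlib 3.10.9 were used. Gene positions came from the GENCODE annotation of the same build. Results for some listed genes are not reported here.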

Additional observations from a re-analysis of the deposited data

Results flagged for a closer look

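Some members had ratios whose counting intervals lay on opposite sides of 1 in different tissues. In each case the difference between tissues was not tested, since each tissue and state was 1 library. For tumor-bearing over naive mice, Klf2 was at 1.22 in marrow, 0.877 in blood and 0.795 in spleen, and Klf4 at 1.31 in marrow and 0.804 in spleen. For tumor tissue over tumor-bearing libraries, Klf2 was at 1.26 over marrow, 0.679 over blood and 0.910 over spleen.

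For the low over the high bin of surface Ly-6C (4 bins of equal cell number), Cebpa was at 2.80 in tumor tissue and 1.69 in naive marrow, but at 0.783 in tumor-bearing blood, 0.721 in naive blood and 0.678 in naive spleen. Cebpb was at 0.709 in tumor tissue, and at 1.49 in tumor-bearing blood, 1.20 in naive blood and 1.08 in tumor-bearing spleen. Irf8 was at 1.46 in tumor tissue, and at 0.839 in tumor-bearing blood, 0.855 in naive spleen and 0.648 in naive marrow. The bins hold different clusters in tumor tissue than in blood, spleen and marrow. Without cluster 4, Cebpa was at 1.06 in tumor-bearing blood, 0.923 in naive blood and 0.741 in naive spleen. Cebpb was then at 1.24 in tumor-bearing blood, 0.972 in naive blood and 0.955 in tumor-bearing spleen. Irf8 without cluster 4 was at 0.987 in tumor-bearing blood, 0.927 in naive spleen and 0.652 in naive marrow.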

How the results depend on the processing

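Of 1323 ratios of members recomputed under other scalings, minimums and sets of cells, 1296 kept their call, 27 changed it and 0 of the called ones turned round. Of 147 counts of called members, 140 stayed within 1.5 times of the reported one. In cluster 4 of tumor-bearing spleen 2 members were called as reported, 4 with cells thinned to 5000 UMIs and 5 against cluster 0 alone. In the low Ly-6C bin of tumor-bearing blood the count was 2 as reported, 1 with cells split at the median and 0 without cluster 4, the last chosen after seeing the data. In tumor-bearing spleen the Ly-6C count was 0 as reported and 1 after thinning, in naive spleen 0 and 1 with the split at the median, and in naive marrow 1 and 2 with no minimum. The causes were not tested. Leaving out mitochondrial, ribosomal-protein and haemoglobin genes from the totals shifted tumor ratios by -0.05 to -0.09 on the log2 scale. No paired analysis was possible because each group was 1 library and the labels tie no libraries to an animal. Leaving out a replicate was likewise not possible. Depth limits Irf4 everywhere and all members in marrow, where tumor-bearing mice had 57 cells.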
